A study of Mus musculus with 12 samples.

Results

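The tissue inhibitors of metalloproteinases, Timp1, Timp2, Timp3 and Timp4, were followed in the ascending aorta of mice in which the type II TGF-β receptor gene Tgfbr2 had or had not been targeted in smooth muscle cells, with normal or mutant fibrillin-1. They were taken by symbol: 4 of the 19938 genes that the array's annotation names alone on a probe set, each with 1 probe set, and all 4 passed the filter on low values that left 14944 genes tested. Timp1 was 2.91-fold higher in knockout than in control aortas with wild-type Fbn1 and did not pass the test in Fbn1 mutants. Timp4 was 2.38-fold higher in knockout than in control aortas of Fbn1 mutants and did not pass the test in the wild-type. The difference in knockout effect between the genotypes passed for Timp1 (limma, adjusted p = 0.00514) and not for Timp4 (adjusted p = 0.096). Timp3 moved by at most 0.22 and Timp2 by at most 0.05 on the log2 scale between any 2 groups.

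TIMPs are small secreted proteins that bind the catalytic site of matrix metalloproteinases (MMPs) and, to differing degrees, of the related ADAM and ADAMTS proteases, and so limit the breakdown of collagen, elastin and proteoglycans in the wall of the aorta. Timp1 is soluble and also binds the inactive form of Mmp9. Timp2 blocks MMPs but also joins Mmp14 in a complex that activates Mmp2. Timp3 is held in the extracellular matrix and is the family member that also inhibits Adam17, Adamts4 and Adamts5, while Timp4 has the most restricted expression and is known from the heart. Breakdown of elastic fibres and an excess of MMP activity are well known features of aortic aneurysm, and Fbn1, which encodes the microfibril protein fibrillin-1, is the gene mutated in Marfan syndrome.

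There were 12 arrays, 3 in each of 4 groups, all from mice aged 6 weeks. Every group, the controls included, carried the Myh11-CreERT2 transgene and floxed Tgfbr2 (Tgfbr2f/f), so that Cre, made under a smooth muscle promoter, could act in smooth muscle cells after tamoxifen and not in the other cells of the wall. The wild-type control group (Myh11-CreERT2.Tgfbr2f/f, corn oil) and the wild-type knockout group (Myh11-CreERT2.Tgfbr2f/f, tamoxifen) had normal Fbn1. The mutant control group (Fbn1C1039G/+.Myh11-CreERT2.Tgfbr2f/f, corn oil) and the mutant knockout group (the same genotype, tamoxifen) carried 1 copy of the Fbn1 allele used to model Marfan syndrome. Injections were intraperitoneal, 5 daily doses beginning at 4 weeks of age, with 1 mg of tamoxifen per dose in the knockout groups. Effects of receptor loss and of tamoxifen itself therefore cannot be told apart, and no label states whether the arrays of a group are separate animals, so the p-values speak for the spread between samples, which may be technical.

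Median intensity per array was 301 to 334, and log2 values of arrays correlated at 0.996 to 0.998 within groups and 0.991 to 0.996 between groups, over genes. Smooth muscle markers were at high intensity in every array (Acta2 23641 to 24891, Myh11 16067 to 18162, Tagln 15640 to 16333). The single Tgfbr2 probe set gave a log2 level of 11.87 in wild-type knockouts and 11.95 in wild-type controls, a difference of -0.08 (exact two-sided permutation test, p = 0.2), and 12.03 and 11.99 in mutant knockouts and controls, a difference of 0.04 (exact permutation test, p = 0.3), where 3 arrays against 3 can reach no p below 0.1. Whether that probe set lies in the floxed part is not given in the sources used here, so it does not check the labels. The labels also disagree: all 6 knockout titles name Tgfbr2, but the descriptions of 4 of these samples name Tgfbr3 or Tgfbr4. Groups follow the titles, and "knockout" below means the group so labelled.

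The promoters of Timp1 and Timp4 are shown because these members passed the test for the knockout within a single Fbn1 genotype. The 250 bases before the RefSeq start of each gene follow 5′ to 3′ on the gene's own strand (assembly GRCm38.p6), Timp1 at chrX:20869916-20870165 on the plus strand and Timp4 at chr6:115252206-115252455 on the minus strand. Capitals mark AGGAAG, a core of ETS factor sites, and GGGCGG, the GC box, read on either strand. The shorter Timp1 line is chrX:20870181-20870210, just after the start, with capitals on TGAGTAA, a relative of the AP-1 site.
Timp1: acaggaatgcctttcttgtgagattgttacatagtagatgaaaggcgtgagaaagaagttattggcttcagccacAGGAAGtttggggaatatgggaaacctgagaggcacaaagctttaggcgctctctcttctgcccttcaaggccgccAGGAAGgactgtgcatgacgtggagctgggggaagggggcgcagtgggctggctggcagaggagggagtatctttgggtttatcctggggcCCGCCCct
Timp1 after the start: cggtgggtggaTGAGTAAtgcgtccaggaa
Timp4: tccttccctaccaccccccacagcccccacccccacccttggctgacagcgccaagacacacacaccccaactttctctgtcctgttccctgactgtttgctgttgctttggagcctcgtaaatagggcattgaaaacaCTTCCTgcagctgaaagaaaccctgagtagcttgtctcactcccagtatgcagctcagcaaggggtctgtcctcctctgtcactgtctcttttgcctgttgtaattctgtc

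Within the window from 250 bases before to 50 after the start, Timp1 had 3 matches to AGGAAG, 1 to GGGCGG and 1 to TGAGTAA. Timp4 had 1 match to AGGAAG and 1 to CAGACA, a Smad-type element that lay across the start on the opposite strand, from -4 to +2, and is not in capitals above. Timp2 had 1 match to GGGCGG, and Timp3 had 2 to GGGCGG and 1 to AGGAAG. The AP-1 consensus TGANTCA, the TATA box TATAAA and the CArG box were not matched in any of the 4 windows. No matches overlapped each other. Of all 32851 RefSeq windows of this length, 35.4% held AGGAAG, 35.7% GGGCGG, 21.0% CAGACA, 13.6% TATAAA, 7.81% TGANTCA, 2.68% TGAGTAA and 1.63% the CArG box. These letter matches describe the windows and are not evidence of binding.

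Timp1 intensity in wild-type controls was 1211, 1569 and 1332 on arrays 1 to 3. In wild-type knockouts it was 4200, 4358 and 3425, and each of these was above every control array, a lack of overlap seen for 35.8% of all genes tested. In mutant controls it was 1762, 1432 and 1832, and in mutant knockouts 2275, 1783 and 2035. The mutant knockout and mutant control arrays overlapped, and the highest of them, 2275, was below the lowest wild-type knockout, 3425. As group means, Timp1 intensity was 1371 ± 182 (SD, n = 3) in wild-type controls, 1675 ± 214 in mutant controls, 2031 ± 246 in mutant knockouts and 3994 ± 499 in wild-type knockouts.

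The knockout difference of Timp1 in the Fbn1 wild-type was 1.54 ± 0.13 on the log2 scale (limma's standard error, adjusted p = 1.16e-05), the 16th largest increase among the 14944 genes tested. In that comparison 18.8% of all genes tested passed the threshold, an adjusted p under 0.05 by Benjamini and Hochberg in limma, 9.17% upward and 9.66% downward. In Fbn1 mutants the Timp1 difference was 0.28 ± 0.13 (adjusted p = 0.154; 13.4% of genes tested passed, 7.66% upward and 5.77% downward). The test of the difference between these effects gave -1.26 ± 0.18 (adjusted p = 0.00514), the 6th most negative of all genes tested, in a contrast that 1.48% of genes passed, 0.401% upward and 1.08% downward. Timp1 was accordingly lower in mutant than in wild-type knockouts, by a log2 difference of -0.97 ± 0.13 (adjusted p = 0.00104; 5.96% of genes passed, 2.8% upward and 3.16% downward).

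The order of the Timp1 levels was wild-type control, mutant control, mutant knockout and wild-type knockout. The first neighbours in that order differed by 0.29 ± 0.13 (adjusted p = 0.192; 6.49% of genes passed, 3.17% upward and 3.33% downward) and the next by the 0.28 given above, neither past the threshold, whereas mutant knockouts were above wild-type controls by 0.57 ± 0.13 (adjusted p = 0.00704; 23.3% of genes passed). That last difference kept its sign but lost its call with a cardiac muscle score (0.93, adjusted p = 0.114), an immediate early gene score (0.24, adjusted p = 0.237) or a macrophage score (0.56, adjusted p = 0.456) as a covariate, and over all its alternatives the adjusted p ran from 0.0055 to 0.456. Averaged over both Fbn1 genotypes, the knockout difference was 0.91 ± 0.09 (adjusted p = 2.26e-05; 28.9% of genes passed), a mean of unequal effects.

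**Figure D1:**
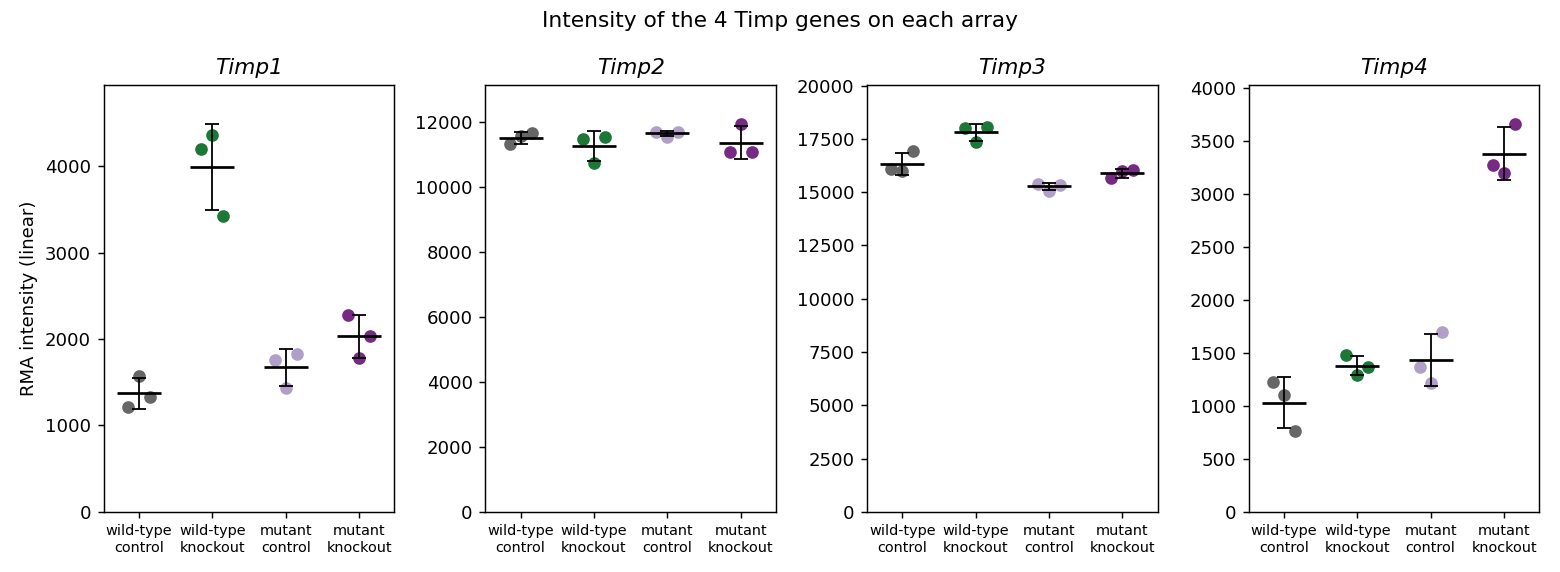
Linear RMA intensity (vertical axis, from 0, its range set per gene) of Timp1, Timp2, Timp3 and Timp4 on each of 12 arrays, with 3 points per group, a bar at the group mean and whiskers of 1 SD. Timp1 stands highest in wild-type knockouts (3425 to 4358), Timp4 in mutant knockouts (3200 to 3663), and Timp2 lies between 10733 and 11949 in all groups.

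Timp4 had the highest level in another group. Its intensity was 1224, 1106 and 761 in wild-type controls and 1476, 1292 and 1370 in wild-type knockouts. In mutant controls it was 1367, 1220 and 1701, and in mutant knockouts 3277, 3200 and 3663. The 3 mutant knockout arrays were above all 9 others, with nothing between 1701 and 3200. Mutant knockouts and mutant controls did not overlap for 35.9% of all genes tested, and the share for 3 arrays against 9 was not computed. The group means were 1030 ± 241, 1379 ± 92.2, 1429 ± 246 and 3380 ± 248 (SD, n = 3 each) in the order just used.

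The knockout difference of Timp4 in Fbn1 mutants was 1.25 ± 0.15 on the log2 scale (adjusted p = 0.00038), the 7th largest increase among the genes tested. In the Fbn1 wild-type it was 0.45 ± 0.15 (adjusted p = 0.0619), with no overlap between the groups, as for 35.8% of all genes tested in that comparison. The difference between the effects was 0.81 ± 0.22 (95% interval 0.33 to 1.28, adjusted p = 0.096), the 9th most positive of all genes but not past the threshold. The difference varied with the wild-type control arrays. Without wild-type control 3, the lowest at 761, it was larger, 1.01 (adjusted p = 0.0128, from a range of 0.0128 to 0.424 over its alternatives), and the wild-type knockout effect was 0.24 instead of 0.45. Without wild-type control 1 the difference was smaller, 0.67, and the wild-type knockout effect was 0.59. A larger Timp4 effect in mutants was therefore not established at the threshold with all 12 arrays.

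In the order of Timp4 levels, wild-type controls were lowest, wild-type knockouts and mutant controls were next to each other, with a difference of -0.04 ± 0.15 (adjusted p = 0.885, 95% interval -0.37 to 0.30), and mutant knockouts were highest. Mutant controls were above wild-type controls by 0.49 ± 0.15 (adjusted p = 0.0793), with overlapping arrays. Without wild-type control 1 that difference was 0.63 (adjusted p = 0.0451, from a range of 0.0451 to 0.24 over its alternatives), and without wild-type control 3 it was 0.28. Mutant knockouts were 2.45-fold above wild-type knockouts (log2 1.29 ± 0.15, adjusted p = 0.000569, the 3rd largest increase) and 3.34-fold above wild-type controls (1.74 ± 0.15, adjusted p = 1.66e-05, also the 3rd largest). The mean knockout difference over both genotypes was 0.85 ± 0.11 (adjusted p = 0.000141).

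Timp3, the matrix-bound member, was measured at 16084, 15969 and 16932 in wild-type controls and 18022, 17349 and 18055 in wild-type knockouts. It was at 15382, 15074 and 15346 in mutant controls and 15644, 15987 and 16017 in mutant knockouts. Knockout and control arrays did not overlap in either genotype, as for 35.8% and 35.9% of all genes tested, and the steps were small. The knockout difference was 0.13 ± 0.04 in the wild-type (adjusted p = 0.0638) and 0.06 ± 0.04 in mutants (adjusted p = 0.386), and the difference between them was -0.07 ± 0.06 (adjusted p = 0.598). The first of these passed the threshold when the prior variance was allowed to follow the mean level (0.13, adjusted p = 0.00965) and in 4 other alternatives, while with the macrophage score as a covariate it was -0.04 (adjusted p = 0.959).

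Wild-type knockouts had the highest Timp3 level, 17809 ± 399 (SD, n = 3), and mutant controls the lowest, 15267 ± 168. This pair was the one whose separation was clearest, at 0.22 ± 0.04 (adjusted p = 0.00434; 19.1% of genes passed). With the macrophage score as a covariate it was 0.084 and the call was lost (adjusted p = 0.902), the highest of a range from 0.000204 over its alternatives. Between them lay wild-type controls at 16328 ± 526 and mutant knockouts at 15883 ± 207, which overlapped and differed by -0.04 ± 0.04 (adjusted p = 0.555). Mutant controls were below wild-type controls by a log2 difference of -0.10 ± 0.04 (adjusted p = 0.202). Timp3 was lower in mutant than in wild-type knockouts by -0.16 ± 0.04 (adjusted p = 0.0434) and higher in knockouts on average by 0.09 ± 0.03 (adjusted p = 0.0425). Both calls were close to the threshold, and were lost in 19 of 28 and in 18 of 27 alternatives.

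Timp2, the partner of Mmp14 in activating Mmp2, was at 11317, 11568 and 11668 in wild-type controls and 11485, 10733 and 11551 in wild-type knockouts. It was at 11695, 11555 and 11697 in mutant controls and 11079, 11949 and 11068 in mutant knockouts. Group means were 11517 ± 181, 11256 ± 454, 11649 ± 81.5 and 11365 ± 505 (SD, n = 3 each). The knockout difference was -0.03 ± 0.05 in the wild-type (95% interval -0.14 to 0.07, adjusted p = 0.688) and -0.04 ± 0.05 in mutants (95% interval -0.14 to 0.07, adjusted p = 0.631). The comparisons of Fbn1 genotypes gave 0.02 among controls (adjusted p = 0.866) and 0.01 among knockouts (adjusted p = 0.914). For the measured intensity of Timp2 these intervals exclude changes of the size seen in Timp1 and Timp4. By mean level Timp2 and Timp3 were at percentiles 99.4 and 99.8 of all genes, against 85.2 for Timp1 and 80.0 for Timp4. Whether the arrays read changes in full at such high levels was not tested.

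**Figure D2:**
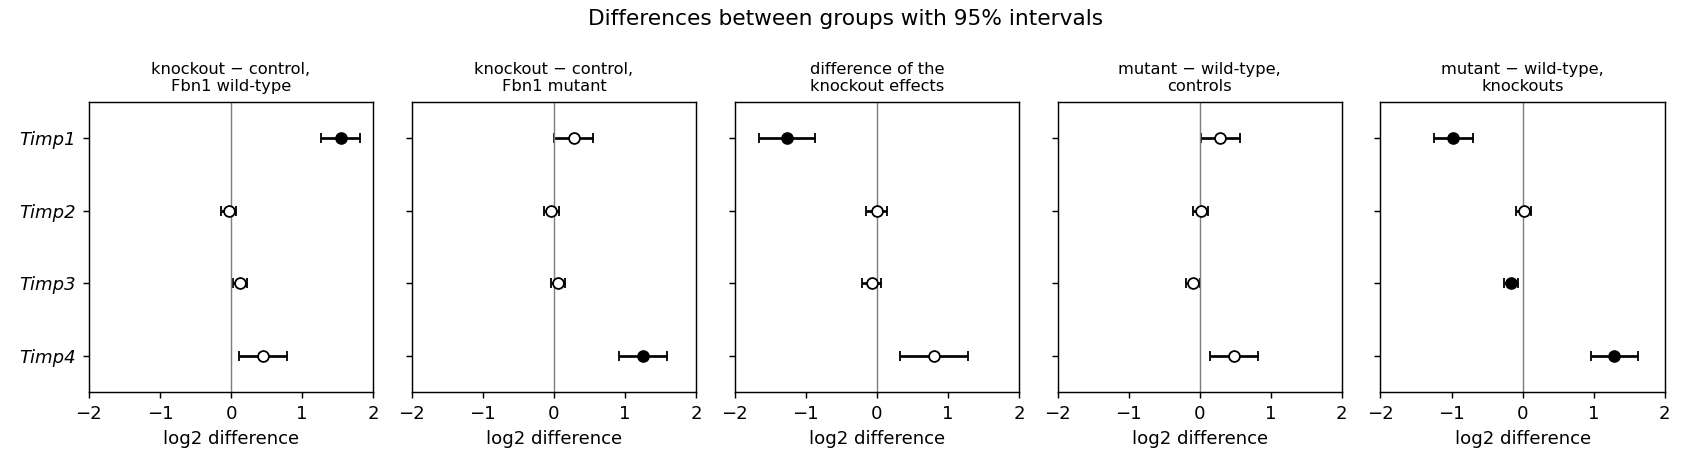
Log2 differences (horizontal axis) of the 4 Timp genes in 5 comparisons of groups of 3 arrays, with points at limma's estimates, whiskers for the 95% intervals and filled points where the adjusted p was under 0.05. Timp1 is at 1.54 and Timp4 at 0.45 for the knockout in the Fbn1 wild-type, against 0.28 and 1.25 in Fbn1 mutants.

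The MMPs, the main targets of the family, moved in both directions. Of 22 measured, 14 were tested. For the knockout in the wild-type, 2 rose and 2 fell (18.8% of all genes passed), with a median of 0.05 against -0.01 over all genes tested. Mmp2, a gelatinase that Timp2 helps to activate, rose from 7936 ± 567 to 10363 ± 402 (log2 0.39 ± 0.07, adjusted p = 0.00187). Mmp19 rose by 0.78 ± 0.10 (adjusted p = 0.000239). Mmp9, the gelatinase bound by Timp1, fell by 0.39 (SE 0.08, adjusted p = 0.00565), and the membrane-anchored Mmp17 fell by 0.63 (SE 0.07, adjusted p = 8.06e-05).

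In Fbn1 mutants the knockout left 1 of the 14 MMPs past the threshold (13.4% of all genes passed), with a median of -0.08 against 0.03 over all genes. This was Mmp17, with a fall of 0.31 (SE 0.07, adjusted p = 0.0137). Mmp2 was at -0.21 ± 0.07 (adjusted p = 0.0599), opposite in sign to the wild-type. Its difference of the effects was -0.60 ± 0.10 (adjusted p = 0.00974). It was the 1 MMP to pass that test, which 1.48% of all genes passed, 1.08% downward. Mmp19 was at 0.16 ± 0.10 (adjusted p = 0.293; difference of the effects -0.62 ± 0.14, adjusted p = 0.0551) and Mmp9 at -0.11 ± 0.08 (adjusted p = 0.347). Mmp14, the membrane protease that anchors Timp2, was at 0.12 ± 0.08 in the wild-type (adjusted p = 0.319) and -0.08 ± 0.08 in mutants (adjusted p = 0.512). Timp1 and Mmp2 thus both had a larger knockout effect in the wild-type than in mutants, each by the test of that difference.

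Between Fbn1 genotypes among controls, 2 of the 14 MMPs rose and 1 fell in mutants (6.49% of all genes passed). Mmp14 was higher in mutant controls by 0.36 ± 0.08 (adjusted p = 0.0174). Mmp16, named after its values were seen, was higher by 0.28 ± 0.06 (adjusted p = 0.0193) and Mmp9 lower, with a log2 difference of -0.33 ± 0.08 (adjusted p = 0.0307). Among knockouts 2 fell (5.96% of all genes passed, 3.16% downward), Mmp2 by 0.37 (SE 0.07, adjusted p = 0.00752) and Mmp19 by 0.51 (SE 0.10, adjusted p = 0.0105).

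Of the ADAM proteases, which shed proteins from the cell surface, 8 of 10 were tested. For the knockout in the wild-type 2 rose (18.8% of all genes passed, 9.17% upward), Adam8 by 0.29 ± 0.07 (adjusted p = 0.0172) and Adam12 by 0.26 ± 0.06 (adjusted p = 0.00984). In mutants 0 of 8 passed in limma, with 3 at an unadjusted p under 0.05 (13.4% of all genes passed). Adam17, the shedding enzyme that Timp3 inhibits, was at 0.15 ± 0.06 (adjusted p = 0.131) and 0.04 ± 0.06 (adjusted p = 0.725).

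Of the ADAMTS proteases, secreted enzymes that cut proteoglycans and process procollagen, 16 of 18 measured were tested. In the wild-type 3 rose and 4 fell, and in mutants 1 rose and 4 fell, where 18.8% and 13.4% of all genes passed. The medians were 0.04 and 0.03, against -0.01 and 0.03 over all genes tested. Adamts7 rose in both genotypes, by 0.39 ± 0.04 (adjusted p = 9.54e-05) and 0.29 ± 0.04 (adjusted p = 0.00165). Adamts6 fell in both, by 0.49 (SE 0.12, adjusted p = 0.0115) and 0.80 (SE 0.12, adjusted p = 0.00121). Adamts9 fell by 0.49 (adjusted p = 0.0074) and 0.44 (adjusted p = 0.0209), and Adamts10 by 0.34 (adjusted p = 0.00663) and 0.35 (adjusted p = 0.0107).

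The aggrecanases inhibited by Timp3 did not pass in either genotype. Adamts4 was at 0.02 ± 0.06 (adjusted p = 0.827) and 0.10 ± 0.06 (adjusted p = 0.298), and Adamts5 at 0.18 ± 0.07 (adjusted p = 0.0967) and 0.15 ± 0.07 (adjusted p = 0.172). Adamts1 had larger estimates with larger errors, 0.57 ± 0.19 (adjusted p = 0.0566) and 0.46 ± 0.19 (adjusted p = 0.127), and passed as the mean of both genotypes (0.51 ± 0.14, adjusted p = 0.0142). Adamts12, singled out after its values were seen, moved in opposite directions: it was 439 ± 28.8 in wild-type controls, 636 ± 28.7 in wild-type knockouts, 1135 ± 174 in mutant controls and 853 ± 68.0 in mutant knockouts. Its difference of the knockout effects was -0.94 ± 0.14 (adjusted p = 0.00632). It was the single ADAMTS gene to pass that test, which 1.48% of all genes passed, 1.08% downward.

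**Figure D3:**
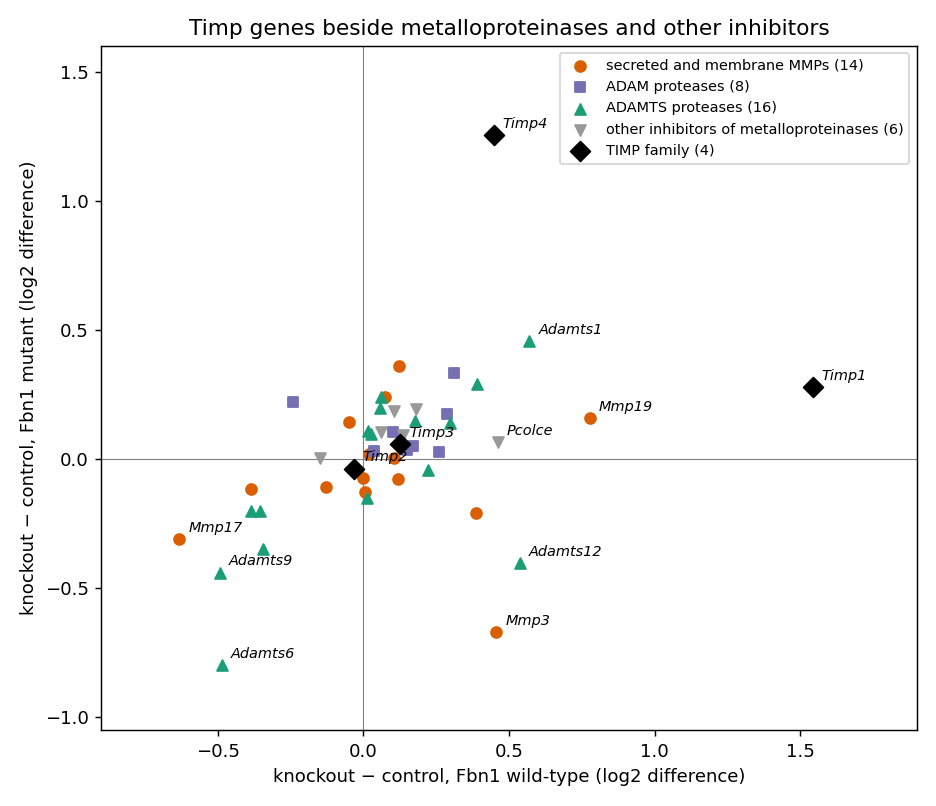
Knockout-minus-control log2 differences in the Fbn1 wild-type (horizontal axis) and in Fbn1 mutants (vertical axis), 1 point per tested gene, for the 4 Timp genes (black diamonds), 14 MMPs, 8 ADAMs, 16 ADAMTS genes and 6 other inhibitors, each from 3 arrays per group and with no error drawn. Timp1 (1.54, 0.28) and Timp4 (0.45, 1.25) lie farther from the origin than the proteases drawn, while Timp2 and Timp3 lie near it.

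Of 8 other inhibitors of metalloproteinases 6 were tested, and 1 rose in each genotype, where 9.17% and 7.66% of all genes rose in the wild-type and in mutants. Pcolce, an enhancer of procollagen processing whose released domain resembles the inhibitory domain of the TIMPs, rose in the wild-type by 0.46 ± 0.07 (adjusted p = 0.00044) and was at 0.06 ± 0.07 in mutants (adjusted p = 0.521). Spock1, a proteoglycan of the testican family, rose in mutants by 0.19 ± 0.05 (adjusted p = 0.0384) and was at 0.10 ± 0.05 in the wild-type (adjusted p = 0.205). Reck, a membrane-anchored MMP inhibitor, was at 0.06 ± 0.05 (adjusted p = 0.437) and 0.10 ± 0.05 (adjusted p = 0.163). Tfpi2 and A2m passed as the mean of both genotypes, at 0.19 ± 0.06 (adjusted p = 0.0325) and 0.11 ± 0.04 (adjusted p = 0.0403). The mean log2 levels of Spock1, Tfpi2 and A2m, 7.68, 7.50 and 7.45, were close to the filter on low values at 7.31.

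Of 8 genes for proteins that bind or take up TIMPs or MMPs, all tested, 1 rose in each genotype (9.17% and 7.66% of all genes rose in the wild-type and in mutants). It was Cd44, a hyaluronan receptor that holds MMPs at the cell surface, with 0.50 ± 0.06 in the wild-type (adjusted p = 0.000164) and 0.26 ± 0.06 in mutants (adjusted p = 0.0169). Lrp1, the receptor that clears TIMPs and MMP complexes from the matrix, was at -0.10 ± 0.08 (adjusted p = 0.44) and -0.12 ± 0.08 (adjusted p = 0.334). Cd63, a binding partner of Timp1 at the cell surface chosen after its values were seen, was at 0.00 ± 0.08 (adjusted p = 0.989) and -0.01 ± 0.08 (adjusted p = 0.934). Efemp1, a binding partner of Timp3, was at 0.28 ± 0.18 (adjusted p = 0.31) and 0.29 ± 0.18 (adjusted p = 0.272).

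Timp1, Timp3 and Timp4 each lie inside a synapsin gene in the RefSeq annotation: Syn1 contains Timp1, Syn3 contains Timp3 and Syn2 contains Timp4, while Cep295nl lies inside Timp2. Of these 4 overlapping genes 0 passed in either knockout comparison in limma, with 2 and 0 at an unadjusted p under 0.05 in the wild-type and in mutants. Of all genes tested 18.8% and 13.4% passed in these comparisons. Syn1, which contains Timp1, was at 0.04 ± 0.05 in the wild-type knockout (adjusted p = 0.626). Syn2, which contains Timp4, was at 0.00 ± 0.08 in the mutant knockout (adjusted p = 0.988). Syn3 was at -0.17 ± 0.07 (adjusted p = 0.122) and -0.02 ± 0.07 (adjusted p = 0.84). Cep295nl was at -0.22 ± 0.07 (adjusted p = 0.061) and -0.14 ± 0.07 (adjusted p = 0.215), and passed as the mean of both (-0.18 ± 0.05, adjusted p = 0.0239). The 95% intervals of Syn1 in the wild-type (-0.07 to 0.16) and of Syn2 in mutants (-0.18 to 0.18) lie below the changes of the Timp genes they contain. Both genes were dim, Syn1 at 284 to 339 and Syn2 at 382 to 481 over all arrays, beside array medians of 301 to 334. Any part of the containing genes in the Timp readings was not tested.

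Markers of other cell types moved in the same comparisons, and in bulk tissue a change in the number of cells of a type cannot be told apart from a change in RNA per cell. Of 13 macrophage markers tested, 13 rose with the knockout in the wild-type (median 0.98) and 7 in mutants (median 0.35), and 7 were lower in mutant than in wild-type knockouts. The shares over all genes tested were 9.17% and 7.66% upward with the knockout, and 3.16% downward between knockouts. The macrophage score, the mean of centred log2 values over the list, was -0.48 to -0.27 in wild-type controls, -0.37 to -0.06 in mutant controls, 0.11 to 0.15 in mutant knockouts and 0.41 to 0.56 in wild-type knockouts, the same order of groups as for Timp1. Adgre1, the F4/80 antigen of macrophages, rose from 595 ± 45.7 to 1387 ± 98.1 in the wild-type (log2 1.22 ± 0.08, adjusted p = 2.91e-06) and from 755 ± 81.3 to 969 ± 35.4 in mutants (0.36 ± 0.08, adjusted p = 0.0154). With that score as a covariate, an alternative chosen after seeing the data, the Timp1 difference in the wild-type was 1.53 ± 0.50 (adjusted p = 0.344) and the difference of the effects was -1.26 ± 0.34 (adjusted p = 0.157). The estimates stayed, the errors grew and both calls were lost, whereas over the alternatives without this score the adjusted p was at most 0.000174 and 0.0189.

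Of all genes tested 9.17% rose with the knockout in the wild-type and 7.66% in mutants. Endothelial markers rose in 5 of 10 and 6 of 10 (medians 0.53 and 0.39). Fibroblast markers rose in 5 of 11 and 2 of 11, and 1 fell in mutants (medians 0.23 and -0.08). Of 10 smooth muscle markers 2 fell in the wild-type, and 1 rose and 1 fell in mutants (medians -0.06 and 0.03). Of 6 nerve and glia markers tested 1 rose and 1 fell in the wild-type and 1 fell in mutants, and of 4 lymphocyte markers 1 rose in the wild-type and 0 passed in mutants in limma (2 at an unadjusted p under 0.05). Their part in the Timp results was not tested.

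Cardiac muscle and adipocyte markers were looked at beside Timp4, whose known site is the heart. Of 14 cardiac markers tested 2 rose and 1 fell in the wild-type and 4 rose and 1 fell in mutants (medians 0.16 and 0.29; 18.8% and 13.4% of all genes passed). The cardiac score was 0.10 to 0.41 in mutant knockouts, -0.20 to 0.04 in mutant controls, -0.03 to 0.09 in wild-type knockouts and -0.20 to -0.18 in wild-type controls. By group mean this score was highest in mutant knockouts and lowest in wild-type controls, as Timp4 was. Myl7, an atrial myosin light chain, was at 500 to 1206 in mutant knockouts and 326 to 378 in mutant controls (log2 1.21 ± 0.27, adjusted p = 0.0129). Cardiac troponin T, Tnnt2, was at 8232 to 8822 and 3075 to 5044 (1.01 ± 0.16, adjusted p = 0.00215), and also rose in the wild-type (0.62 ± 0.16, adjusted p = 0.0166). Other defining genes, picked after their values were seen, had positive estimates in mutants that did not pass. The cardiac myosin Myh6 was at 433 to 600 and 266 to 516 (0.52 ± 0.22, adjusted p = 0.123), and the natriuretic peptide Nppa at 269 to 475 and 260 to 269 (0.34 ± 0.16, adjusted p = 0.162). Also named after their values were seen, Myh7 (0.29 ± 0.07, adjusted p = 0.0138) and Sln (0.25 ± 0.06, adjusted p = 0.0214) rose in mutants. Ryr2, named likewise, was lower there (-0.40 ± 0.12, adjusted p = 0.0435). Myl4 (0.03 ± 0.12, adjusted p = 0.877) and Myl3 (0.02 ± 0.09, adjusted p = 0.918), named likewise, barely moved in mutants. With the cardiac score as a covariate the Timp4 difference in mutants was 1.35 ± 0.27 (adjusted p = 0.046).

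Of 11 skeletal muscle markers 6 were tested, and 4 rose in mutants (median 0.19) and 1 in the wild-type (median 0.05), where 7.66% and 9.17% of all genes did. The highest fold among these 6 in mutants was that of Ckm, muscle creatine kinase (0.38 ± 0.07, adjusted p = 0.00786). The skeletal muscle score was 0.04 to 0.10 in mutant knockouts and -0.10 to -0.05 in mutant controls, and overlapped between wild-type knockouts (-0.02 to 0.08) and wild-type controls (-0.06 to 0.00). It moved with Timp4 in mutants, and its part in that result was not tested.

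Of 11 adipocyte markers tested, 1 rose and 1 fell in the wild-type, where 9.17% of all genes rose and 9.66% fell. In mutants 2 rose, where 7.66% of all genes did. Named after their values were seen, these were Cidea (0.96 ± 0.16, adjusted p = 0.00282) and Pnpla2 (0.26 ± 0.06, adjusted p = 0.0211). Their part in the Timp4 result was not tested. The adipocyte score overlapped between mutant knockouts (-0.09 to 0.46) and mutant controls (-0.42 to 0.40), and with it as a covariate the Timp4 difference in mutants was 1.22 ± 0.17 (adjusted p = 0.00196). Without the 2 arrays of highest Ucp1, a gene of brown fat, it was 1.41 ± 0.18 (adjusted p = 0.00147). With the macrophage score it was 1.26 ± 0.29, and the call was lost (adjusted p = 0.101), the highest of a range from 5.42e-05 over the alternatives of this result.

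Immediate early genes, which respond quickly to many stimuli, tissue handling among them, rose in 3 of 20 and 6 of 20 (medians 0.21 and 0.32), where 9.17% and 7.66% of all genes rose. Their score was -0.04 to 0.72 in mutant knockouts and -0.30 to -0.10 in mutant controls, and overlapped between wild-type knockouts (-0.15 to 0.34) and wild-type controls (-0.42 to 0.00). With this score as a covariate the Timp1 difference was 1.36 ± 0.10 in the wild-type (adjusted p = 2.04e-05) and -0.04 ± 0.12 in mutants (adjusted p = 0.865), where it had been 0.28 and where the adjusted p over its alternatives ran from 0.0463 to 0.865. The Timp4 difference in mutants was then 1.11 ± 0.21 (adjusted p = 0.0194).

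**Figure D4:**
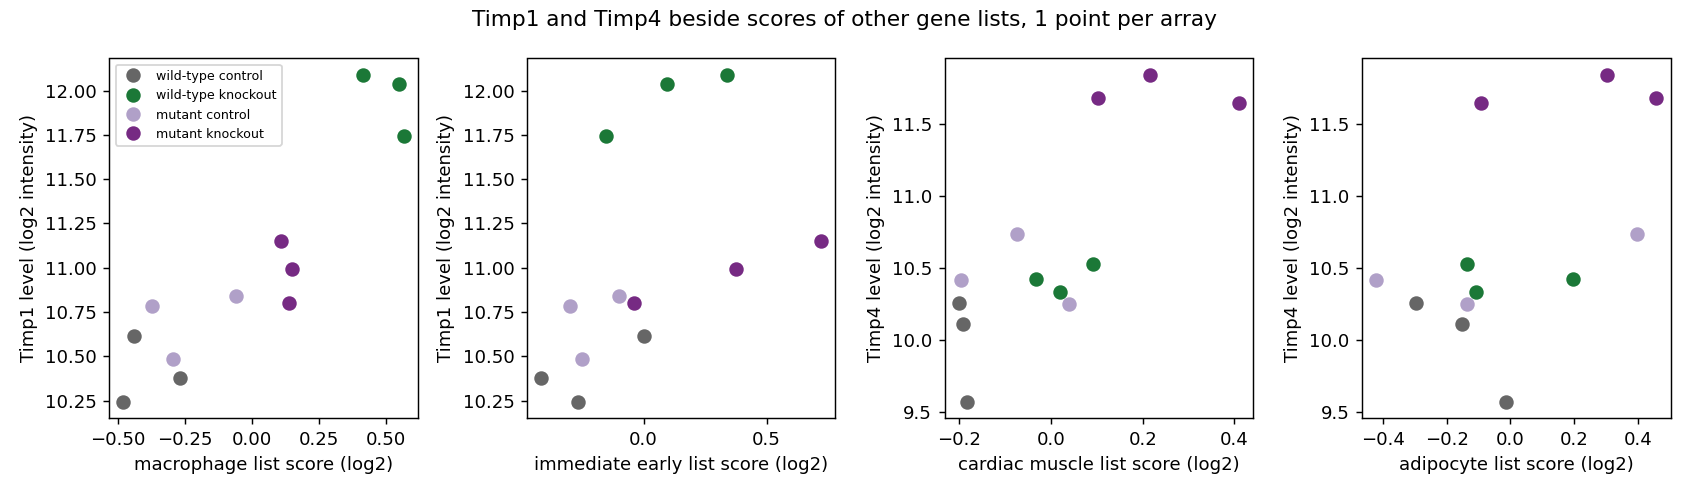
Log2 intensity of Timp1 against the macrophage and immediate early scores and of Timp4 against the cardiac muscle and adipocyte scores (mean of centred log2 values over each list), 1 point per array, coloured by group. Timp1 and the macrophage score are both highest in the wild-type knockouts. The 3 mutant knockouts stand highest in both Timp4 and the cardiac muscle score (0.10 to 0.41), and their adipocyte scores run from -0.09 to 0.46.

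The genes most like each member over the 12 arrays were found among about 1180 tested genes whose group means spanned at least 0.5 on the log2 scale. Since all these arrays share the same groups, a high correlation mainly says that the group means are ordered alike, and it is given as a description. For Timp1 the 5 were Tnfrsf11b (r = 0.956), which encodes the decoy receptor osteoprotegerin, Cyth4 (0.956), Serpina3n (0.956), a protease inhibitor gene of a cluster of close relatives, Fxyd6 (0.955) and Nckap1l (0.955), a gene of blood cells. Serpina3n was at 1.71 ± 0.13 for the knockout in the wild-type (adjusted p = 6.9e-06) and 0.61 ± 0.13 in mutants (adjusted p = 0.0111). Tnfrsf11b was at 1.17 ± 0.08 (adjusted p = 2.28e-06) and 0.32 ± 0.08 (adjusted p = 0.018).

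For Timp4 the 5 were Ppargc1a (r = 0.964), a coactivator of mitochondrial genes, Galm (0.960), Nrgn (0.946), Plagl1 (0.943) and Fbxl7 (0.934). Ppargc1a was at 0.24 ± 0.10 in the wild-type (adjusted p = 0.126) and 0.82 ± 0.10 in mutants (adjusted p = 0.000403). For Timp3 they were Pex5l (0.958), Stk32a (0.954), Iqgap2 (0.945), Xpnpep1 (0.942) and the complement gene C4a (0.941), whose probe set may also read its near-identical copy C4b. All of them were highest in wild-type knockouts. For Timp2, whose groups barely differed, the best were much lower, from Pamr1 (0.576) through Slc6a7 (0.562), Kazald1 (0.558) and Casq1 (0.557) to Stum (0.542).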

How the data were processed

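RNA of 12 samples was labelled with biotin and hybridised to 1-colour whole-transcript Affymetrix arrays, per the labels' protocols. The submitters' processing notes name Partek 6.4 and RMA, and the genome build is not given in the sources used here. Each of the 35556 probe sets was deposited with an RMA-normalised intensity on a linear scale, and log2 was taken here. The number of arrays limits the precision.

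Platform annotation named 1 gene on 21789 probe sets, several on 1621 and none on 12146. A gene was read by its 1-gene probe set of highest mean (19938 genes), and those under the 25th percentile of such probe sets (log2 7.31, intensity 159) were not tested. limma 3.58.1 in R 4.3.3 fitted 1 mean per group to all 12 arrays (lmFit, eBayes without trend, 8 residual and 4.54 prior degrees of freedom), with two-sided tests adjusted by Benjamini and Hochberg over 14944 genes. In simulated data of 14944 genes with normal noise, 100 genes were changed by 0.5 on the log2 scale and 100 by 1. Of those changed by 0.5, 89% and 87% were called in the knockout comparisons of the wild-type and the mutant, and 68% in the difference of the effects. Of the calls, 4.57%, 5.08% and 6.25% were false. More genes passed in the real data than were changed here. These shares are averages over genes of unlike spread, so they do not give the power for a single member.

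The members, the 18 gene lists and the alternatives were chosen with earlier results of these data known. Named were the members, Tgfbr2, listed proteases and inhibitors of main interest, up to 4 genes of smallest p in the mean knockout effect per list, up to 3 per marker list, and for each member the 5 genes of highest Pearson r; other names are said to be chosen after their values were seen. Alternatives covered the filter, scaling, probe set choice, variance model, array weights, groups fitted, title numbers as a replicate block, marker scores as covariates and leaving out each array. Whether numbers in the titles pair the samples was not settled. In deviations from group means, 3 of 18 same-numbered pairs correlated above 0.1. Same-numbered control and knockout arrays within a genotype all correlated positively, from 0.013 to 0.240. RefSeq promoter windows (GRCm38.p6) were searched on both strands.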

Additional observations from a re-analysis of the deposited data

Results flagged for a closer look

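The knockout effect on Timp1 differed between the Fbn1 genotypes by the test of the difference itself, at -1.26 on the log2 scale (mutant minus wild-type, limma, adjusted p = 0.00514), from effects of 1.54 in the wild-type, where 3 of 3 knockout arrays were above 3 of 3 control arrays (the groups did not overlap for 35.8% of all genes tested), and 0.28 in mutants. Over the alternatives that could give it the value lay between -1.40 and -1.12, with adjusted p from 0.00107 to 0.157, the last with the macrophage score as a covariate. The macrophage markers had the same order of group levels.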

How the results depend on the processing

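Of 888 values of the 32 member results under 28 alternatives, 826 neither crossed the threshold nor turned a called direction, 49 lost the call, 12 gained one and 1 called value changed sign. Among the 826, 34 had another sign than the main value with neither past the threshold (25 of Timp2, 4 of Timp3, 4 of Timp4 and 1 of Timp1). With the replicate number as a block, Timp1 in the wild-type knockout was 1.54 (adjusted p = 7.5e-05), Timp4 in the mutant knockout 1.25 (adjusted p = 0.00139) and the Timp1 difference of effects -1.26 (adjusted p = 0.015). The block ended 2 calls of the members, Timp3 in mutant against wild-type knockouts (-0.16, adjusted p = 0.0628) and in the mean knockout effect (0.091, adjusted p = 0.0585), and changed no other, and 6 of 12 arrays correlated best with their own number.

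Timp3 in mutant against wild-type knockouts also lost its call with no filter (-0.16), with the fit of those groups alone (-0.16), with the adipocyte (-0.17), cardiac (-0.17), immediate early (-0.14) or macrophage (-0.10) score, without the 2 arrays of highest Ucp1 (-0.15), and on leaving out 11 of the 12 arrays one at a time (-0.18 to -0.15). The mean knockout effect on Timp3 lost it with no filter (0.091), median centring (0.066), the adipocyte (0.088), cardiac (0.085) or immediate early (0.13) score, without those 2 arrays (0.10) and on leaving out 10 of 12 arrays (0.083 to 0.104), and changed sign with the macrophage score (-0.026). Timp3 in the wild-type knockout gained a call when genes below the median level were dropped (0.13), with a variance trend (0.13) or a robust trend (0.13), with array weights (0.14) and without wild-type control 3 (range over arrays left out 0.11 to 0.15). Timp4 in the wild-type knockout gained one with quantile normalization (0.47), without wild-type control 1 and without mutant control 3 (0.24 to 0.59), Timp4 between controls without wild-type control 1 (0.28 to 0.63), and the Timp4 difference of effects with array weights (0.88) and without wild-type control 3 (0.67 to 1.01). Timp1 in the mutant knockout gained one with array weights (0.38).

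Timp1 in mutant knockouts against wild-type controls lost its call with the cardiac (0.93), immediate early (0.24) and macrophage (0.56) scores. The macrophage score, added after seeing the data, also ended the calls of Timp1 in the wild-type knockout (1.53), between knockouts (-0.97), in the difference (-1.26), in the mean (0.90) and against mutant controls (1.25). It did the same for Timp4 in the mutant knockout (1.26), between knockouts (1.29), in the mean (0.86) and against wild-type controls (1.75), and for Timp3 in wild-type knockouts against mutant controls (0.084). The cause of these changes was not tested, and with the score the standard error was larger for each of these values. Genes called ranged from 0 to 3446 around 2814 in the wild-type knockout, from 55 to 3687 around 2008 in the mutant knockout, from 349 to 1568 around 970 between controls, from 70 to 1687 around 890 between knockouts, from 10 to 469 around 221 in the difference, from 0 to 5491 around 4316 in the mean, from 1 to 3978 around 2853 for wild-type knockouts against mutant controls and from 158 to 4520 around 3479 for mutant knockouts against wild-type controls. Both counts of 0 came from limma with the macrophage score, where 1374 and 1349 genes had an unadjusted p under 0.05 in the wild-type knockout and in the mean.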
